A study of Rattus norvegicus with 9 samples.

Results

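The genes described here are 38 genes of glycolysis, glycogen metabolism and glucose transport, chosen as a named list of enzymes, regulators and transporters and matched to every probe set whose single gene symbol in the platform annotation is one of them. Of the 38, 37 had such a probe set, out of 14218 genes in all, and 58 probe sets represented them. Total RNA came from the gastrocnemius, a large calf muscle with fast and slow fibres, of male Wistar rats weighing 250 g. There were 3 animals in each of 3 groups, with 1 Affymetrix rat expression array per animal. The groups received dexamethasone plus testosterone, dexamethasone alone, or vehicle (propylene glycol), all by osmotic pump for 7 days. Dexamethasone, a synthetic glucocorticoid, was given at 0.7 mg/kg/day in both treated groups. For testosterone, 28 mg/kg/day stands in the labels of the samples but 20 mg/kg/day in the text on the design, and the sources do not settle this. The labels name no genetic change. No testosterone-only group was analysed here, so each comparison with the combination is made against dexamethasone or against vehicle. The labels do not say which portion of the muscle the 20 mg sample came from.

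Glycolysis breaks glucose down to pyruvate, which lactate dehydrogenase can reduce to lactate, and fast muscle fibres depend on it for short bursts of work. Muscle stores glucose as glycogen, breaks it down with glycogen phosphorylase under the control of phosphorylase kinase, and takes up glucose through the insulin-regulated transporter GLUT4. Glucocorticoids are known to reduce insulin-stimulated glucose uptake in muscle and to favour the use of fat over glucose.

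Signals are given as quantile-normalized log2(intensity + 16), on which a difference of 1 is a doubling and changes of dim probe sets are understated. Where a gene had several probe sets, the brightest on average stands for it, and changes are always between arrays for the same probe set. Of the 58 member probe sets, 6 are Affymetrix controls (3 for Gapdh, 3 for Hk1), 45 of the other 52 passed the filter on low signals and 7 did not. The 45 stand for 36 genes. Gapdh, which oxidises glyceraldehyde 3-phosphate, was measured by control probe sets only and was not tested. Pkm, the muscle pyruvate kinase, had no probe set with a single symbol and has no value here. A probe set passed the test where its limma p, adjusted by Benjamini-Hochberg over all 18625 tested probe sets, was below 0.05.

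The arrays differ in technical ways that touch several members. No label names a batch. From the deposited scaling and the Gapdh control probe sets the arrays were divided into 3 sets, called technical batches here. Scaling set batch A apart, and the ratio of the Gapdh 3′ to 5′ signal alone split batch C from batch B. Batch A holds the first replicate of each group and vehicle replicate 3, batch B the second replicates, and batch C dexamethasone replicate 3 and combination replicate 3. In batch C the deposited Gapdh signal at the 3′ end was 6.22 times that at the 5′ end in the combination array and 4.94 times in the dexamethasone array, against 1.06 to 1.17 times in the other 7. No vehicle array is in batch C. All 11 fast fibre markers and all 10 slow fibre markers passed the filter.

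**Figure D1:**
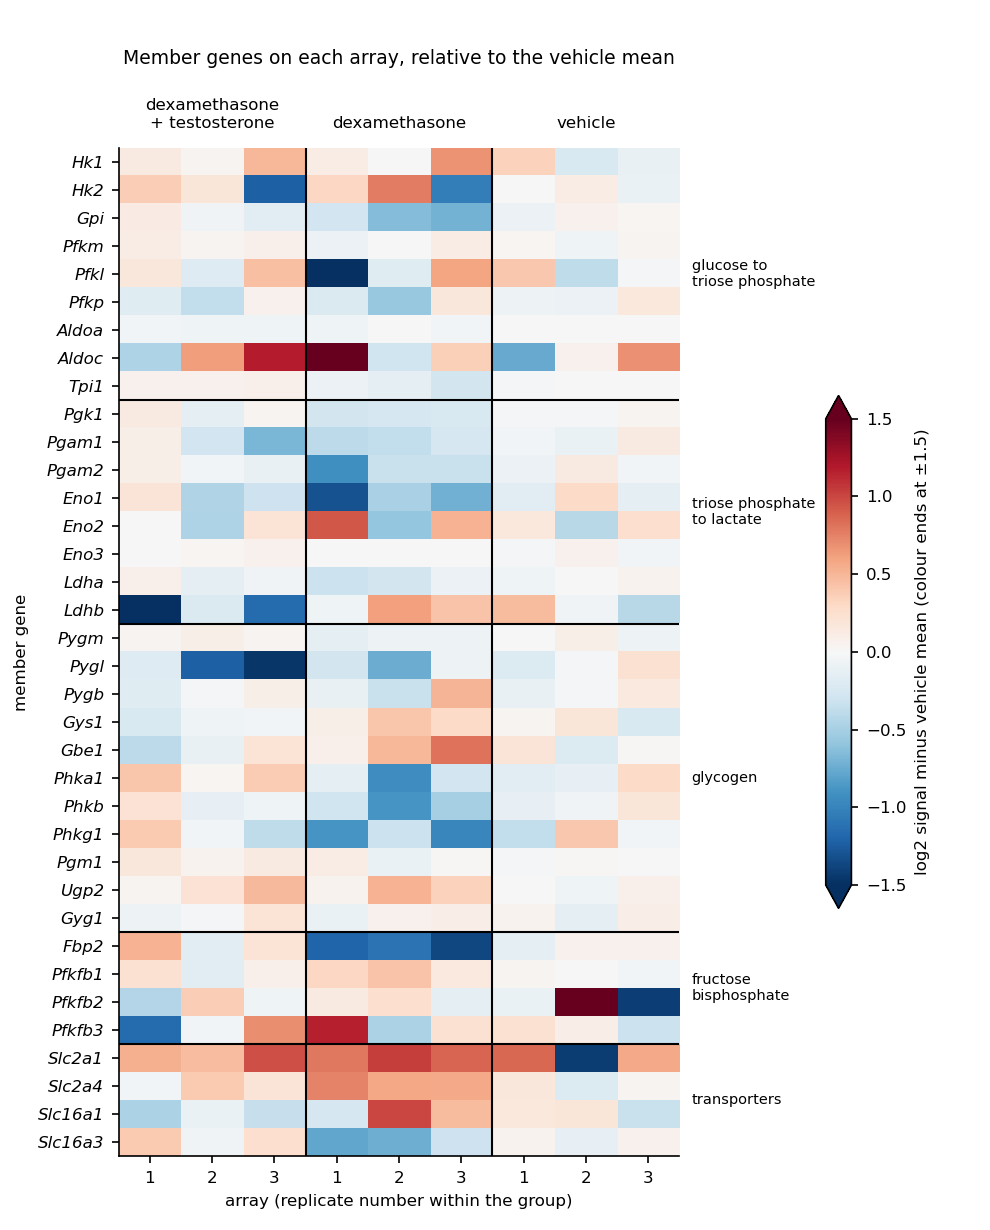
Signal of the 36 tested member genes (rows, grouped by role) on each of the 9 arrays (columns) as log2 difference from the mean of the 3 vehicle arrays, where blue is lower and red is higher. The colour scale is capped at both ends, so differences beyond its ends share 1 colour. Fbp2 is blue on all 3 dexamethasone arrays, and the Ldhb row is darkest on combination replicate 1.

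With dexamethasone, muscle fructose bisphosphatase fell and no other tested member passed. Fbp2 encodes this enzyme, which turns fructose 1,6-bisphosphate back into fructose 6-phosphate, against the direction of glycolysis and towards glycogen. Its signal was 9.60, 9.69 and 9.44 in dexamethasone rats 1, 2 and 3, against 10.66, 10.87 and 10.87 in vehicle rats. Every dexamethasone array lay below every vehicle array, with a gap of about 1 log2 unit. Fbp2 was 2.33-fold lower with dexamethasone (log2 change -1.22 ± 0.21 SE, n = 3 per group, limma adjusted p = 0.0367). It was the 1 member probe set of 45 that passed, beside 1.05% of all tested probe sets (0.483% lower). Within batch A the log2 change was -1.16, and within batch B it was -1.18. The adjusted p crossed the threshold under many settings: Fbp2 passed in 7 of 19 alternatives, with changes from -1.3 to -1.14 and adjusted p from 0.01 to 0.166. It did not pass when any 1 vehicle array, any 1 dexamethasone array or combination replicate 2 was left out (changes -1.3 to -1.15), nor with batch as a block (-1.17, adjusted p = 0.0648).

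**Figure D2:**
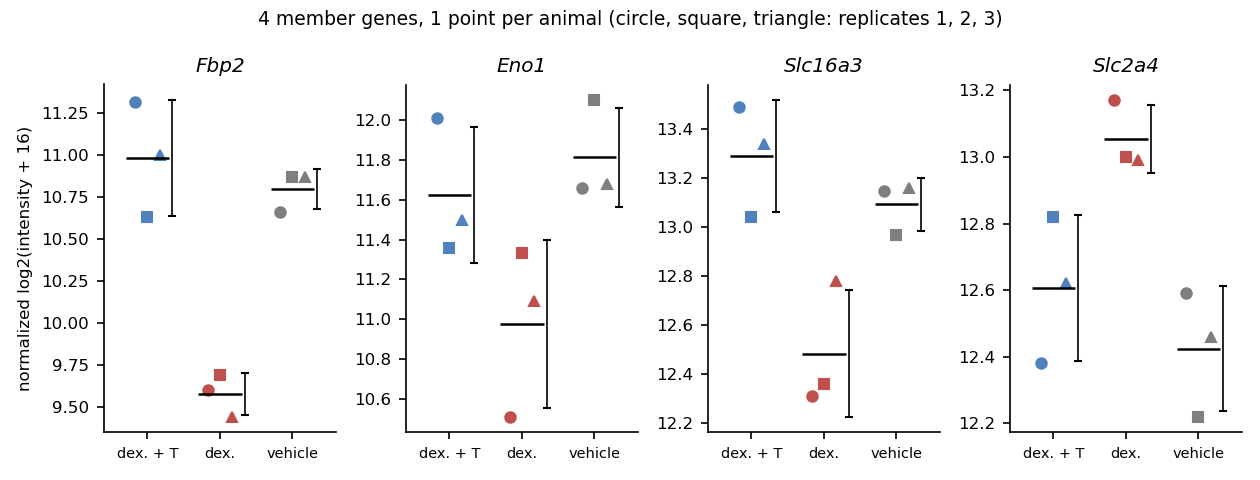
Normalized log2 signal (vertical axis, a scale of its own in each panel) of Fbp2, Eno1, Slc16a3 and Slc2a4 on each array, with group means as bars and SD as whiskers (n = 3 per group; dex. + T is dexamethasone plus testosterone). The 3 dexamethasone arrays lie below all vehicle arrays for Fbp2, Eno1 and Slc16a3 and above them for Slc2a4.

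Across the 36 tested genes, the shift with dexamethasone was small and mixed. The median log2 change was 0.0, with 18 genes below 0 and 18 above, beside a median of 0.04 over all 10428 genes. By array, the median difference from the vehicle mean was -0.1, -0.15 and 0.01 in dexamethasone rats 1, 2 and 3. In 10 of the 36 genes (27.8%) all dexamethasone arrays lay below all vehicle arrays, a pattern met by 11.5% of all genes. In 2 of the 36 all lay above, beside 15.2% of all genes. At an unadjusted p under 0.05 there were 8 of 36 genes (22.2%), 7 of them lower, beside 17.6% of all genes and 8.13% lower. With arrays brought to 1 trimmed mean instead of quantile normalization, the median member change was -0.25, beside -0.03 over all genes, and 12 genes were lower without overlap, beside 14.2%. Members at the top of the scale, such as Aldoa, which ranked between 2 and 5 among all probe sets on each array, have little room to move under quantile normalization.

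Among the genes from glucose to triose phosphate, Gpi had the lowest change with dexamethasone. Gpi, which converts glucose 6-phosphate to fructose 6-phosphate, had signals of 13.95, 13.59 and 13.53 in dexamethasone rats, against 14.15, 14.30 and 14.27 in vehicle rats. All 3 dexamethasone arrays were below the lowest vehicle array, but the change did not pass (log2 change -0.55 ± 0.19 SE, limma adjusted p = 0.197). Tpi1, which interconverts the triose phosphates, had 14.59, 14.55 and 14.41 in dexamethasone rats, against 14.66, 14.69 and 14.69 in vehicle rats. That difference was small and did not pass (-0.16 ± 0.16, limma adjusted p = 0.669). The 9 genes of this stretch had a median change of -0.04, and none passed. Hk2, the insulin-responsive hexokinase that traps glucose in the cell, had 7.35, 7.81 and 6.0 in dexamethasone rats, against 7.03, 7.15 and 6.94 in vehicle rats. The dexamethasone arrays lay on both sides of the vehicle arrays, with the batch C array lowest. Pfkm, the muscle phosphofructokinase, had 14.11, 14.21 and 14.31 in dexamethasone rats, against 14.23, 14.14 and 14.24 in vehicle rats. Aldoa, the muscle aldolase, had 15.09, 15.16 and 15.12 in dexamethasone rats and 15.16 in each vehicle rat. The changes on this scale were 0.01 for Pfkm and -0.04 for Aldoa, but with arrays scaled to 1 mean they were -0.08 and -0.33. Pfkm was also read by 2 other probe sets past the filter. A dim one had 7.57, 7.34 and 7.61 in dexamethasone rats, against 6.47, 7.20 and 6.66 in vehicle rats, all dexamethasone arrays being higher (0.73 ± 0.26, limma adjusted p = 0.217). The third had 13.47, 13.79 and 11.22 in dexamethasone rats, against 13.54, 13.79 and 13.71 in vehicle rats, with the batch C array lowest (-0.85 ± 0.89, limma adjusted p = 0.702).

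From triose phosphate to lactate, 5 of 8 tested genes had all dexamethasone arrays below all vehicle arrays, beside 11.5% of all genes: Pgk1, Pgam1, Pgam2, Eno1 and Ldha. None passed, and the 8 had a median change of -0.24. Eno1, the broadly expressed enolase, had 10.51, 11.33 and 11.09 in dexamethasone rats, against 11.66, 12.10 and 11.68 in vehicle rats. The dexamethasone arrays were spread widely and replicate 1 was lowest. The log2 change was -0.83 ± 0.27 SE (limma adjusted p = 0.182, 0.101 to 0.439 over the alternatives), -1.16 within batch A and -0.77 within batch B. Eno3, the enolase of mature muscle, had 14.83, 14.84 and 14.84 in dexamethasone rats, against 14.82, 14.90 and 14.80 in vehicle rats, and the groups overlapped. Pgam2, the muscle phosphoglycerate mutase, had 13.54, 14.12 and 14.12 in dexamethasone rats, against 14.37, 14.59 and 14.41 in vehicle rats (log2 change -0.53 ± 0.21 SE, limma adjusted p = 0.263). Ldha, the lactate dehydrogenase subunit that predominates in fast fibres, had 14.26, 14.30 and 14.49 in dexamethasone rats, against 14.52, 14.59 and 14.63 in vehicle rats. The gap between the groups was narrow and the change was -0.23. Pgk1, phosphoglycerate kinase, had 14.30, 14.32 and 14.34 in dexamethasone rats, against 14.55, 14.55 and 14.62 in vehicle rats. Pgam1, the broadly expressed phosphoglycerate mutase, had 10.05, 10.08 and 10.19 in dexamethasone rats, against 10.41, 10.35 and 10.58 in vehicle rats. The changes were -0.25 ± 0.16 SE for Pgk1 (limma adjusted p = 0.508) and -0.34 ± 0.22 SE for Pgam1 (limma adjusted p = 0.503). Another Pgk1 probe set past the filter had 13.53, 13.83 and 13.22 in dexamethasone rats, against 14.10, 14.09 and 14.27 in vehicle rats. Its dexamethasone arrays were also all lower, with a larger change that did not pass (-0.63 ± 0.22, limma adjusted p = 0.214).

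Promoter sequence was looked at for the members whose dexamethasone arrays all lay below vehicle, because HIF1 (through the core ACGTG) and the glucocorticoid receptor are known regulators of metabolic genes. The windows are the 250 bases upstream of each start from RefSeq (GRCr8), searched on both strands, and they were found for 35 of the 38 member genes (40 windows); those of Fbp2, Slc2a4 and Pgk1 were not analysed here. ACGTG, which also lies within the E-box CACGTG, was in 18 of the 40 windows (45.0%), beside 16.6% of 33469 windows of that length. The member windows were richer in G and C (median 61.6%, beside 51.2%), and among the 7310 windows at or above 61.6% the share with ACGTG was 22.8%. Of the 10 windows of 8 genes lower without overlap, 2 held it, those of Ldha and Pgam1. The windows of Phkb share most of their bases and were each counted, here and among the 40. The glucocorticoid response element, searched as GNACA, any 3 bases, then TGTNC, was in 0 of 40 member windows and 0.373% of all windows. CANNTG, the general E-box, was in 57.5% of member windows, beside 65.5%, and TATAAA in 7.5%, beside 12.9%. Shown are Ldha and Pgam1, which hold the core, and Eno1 (the downstream of its 2 windows) and Slc16a3, which do not; capitals mark ACGTG on either strand, and each runs 5′ to 3′ towards the start.
Ldha (GRCr8 chr1:106507842-106508091, plus strand): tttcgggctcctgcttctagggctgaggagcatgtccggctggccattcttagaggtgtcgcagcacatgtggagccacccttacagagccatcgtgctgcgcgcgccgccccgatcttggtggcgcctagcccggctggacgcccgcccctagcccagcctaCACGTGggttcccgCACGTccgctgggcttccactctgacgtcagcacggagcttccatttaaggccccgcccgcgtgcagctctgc
Pgam1 (GRCr8 chr1:250672902-250673151, plus strand): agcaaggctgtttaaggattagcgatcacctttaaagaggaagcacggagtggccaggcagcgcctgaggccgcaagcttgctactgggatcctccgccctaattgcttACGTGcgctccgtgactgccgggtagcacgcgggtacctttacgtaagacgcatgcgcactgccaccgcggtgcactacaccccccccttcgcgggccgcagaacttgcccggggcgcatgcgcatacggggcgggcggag
Eno1 (GRCr8 chr5:166003111-166003360, plus strand): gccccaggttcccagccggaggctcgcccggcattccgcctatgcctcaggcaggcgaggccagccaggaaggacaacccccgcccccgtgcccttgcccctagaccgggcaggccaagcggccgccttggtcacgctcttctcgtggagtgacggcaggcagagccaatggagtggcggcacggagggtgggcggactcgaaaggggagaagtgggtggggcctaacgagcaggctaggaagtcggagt
Slc16a3 (GRCr8 chr10:106712078-106712327, plus strand): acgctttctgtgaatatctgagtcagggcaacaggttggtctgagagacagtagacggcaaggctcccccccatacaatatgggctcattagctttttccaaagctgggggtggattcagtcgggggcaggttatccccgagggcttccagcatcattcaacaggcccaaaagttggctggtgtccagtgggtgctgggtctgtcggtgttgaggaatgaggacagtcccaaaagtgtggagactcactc
The Ldha window holds a CACGTG, in which the core reads on both strands, and a further match 8 bases on. A match is a description of the letters and not a binding site, and the arrays measured no binding.

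Over the 11 glycogen genes the median change with dexamethasone was 0.01, and 0 passed in either direction. In 1 of the 11, Phkb, all dexamethasone arrays lay below vehicle, which is near the 11.5% of all genes with that pattern. Phkb, a regulatory subunit of the kinase that activates glycogen phosphorylase, had 12.61, 12.02 and 12.40 in dexamethasone rats, against 12.78, 12.85 and 13.08 in vehicle rats. Its log2 change was -0.56 ± 0.21 SE (limma adjusted p = 0.243). Phkg1, the catalytic subunit of muscle, had 10, 10.57 and 9.91 in dexamethasone rats, against 10.52, 11.30 and 10.85 in vehicle rats, which overlapped (-0.73 ± 0.29, limma adjusted p = 0.272). Phka1, the muscle alpha subunit, had 12.41, 11.63 and 12.27 in dexamethasone rats, against 12.39, 12.44 and 12.85 in vehicle rats, with 1 dexamethasone array inside the vehicle range (-0.45 ± 0.25, limma adjusted p = 0.438). The Phka1 change was -0.22 without dexamethasone replicate 2 and -0.85 as the mean over its probe sets. Its dimmer probe set had 10.74, 10.36 and 8.43 in dexamethasone rats, against 10.74, 11.43 and 11.08 in vehicle rats, with the batch C array lowest (-1.25 ± 0.82, limma adjusted p = 0.515). Pygm, muscle glycogen phosphorylase itself, had 14.49, 14.55 and 14.55 in dexamethasone rats, against 14.62, 14.71 and 14.55 in vehicle rats, on its brightest probe set. Gys1, the muscle glycogen synthase, had 11.59, 11.92 and 11.79 in dexamethasone rats, against 11.55, 11.68 and 11.28 in vehicle rats. Its change of 0.27 ± 0.19 SE did not pass (limma adjusted p = 0.544).

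Among the regulators of fructose bisphosphate, Pfkfb1 had all dexamethasone arrays above vehicle, at 11.25, 11.36 and 11.08 in dexamethasone rats, against 10.98, 10.93 and 10.90 in vehicle rats. This family makes and breaks down fructose 2,6-bisphosphate, the activator of phosphofructokinase. The Pfkfb1 change was small and did not pass (0.29). Pfkfb3, another member of the family, had 11.06, 9.42 and 10.12 in dexamethasone rats, against 10.12, 10 and 9.57 in vehicle rats, and the groups overlapped.

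Of the 4 transporters, the glucose transporter GLUT4 stood higher and the lactate exporter MCT4 lower with dexamethasone, and neither passed. Slc2a4, which encodes GLUT4, had 13.17, 13.00 and 12.99 in dexamethasone rats, against 12.59, 12.22 and 12.46 in vehicle rats. All dexamethasone arrays lay above all vehicle arrays (log2 change 0.63 ± 0.19 SE, limma adjusted p = 0.156), with 0.64 within batch A and 0.78 within batch B. A second Slc2a4 probe set had 9.89, 11.00 and 8.19 in dexamethasone rats, against 9.77, 10.24 and 9.63 in vehicle rats, with the batch C array lowest. Its change was -0.18 ± 0.60 (limma adjusted p = 0.915). On both batch C arrays (8.19 and 9.50) it lay below the 9.63 to 11.00 of the other 7. Slc16a3, which encodes MCT4, the carrier by which fast fibres release lactate, had 12.31, 12.36 and 12.78 in dexamethasone rats, against 13.15, 12.97 and 13.16 in vehicle rats. The dexamethasone arrays were all lower (-0.61 ± 0.20, limma adjusted p = 0.193), with -0.84 within batch A and -0.61 within batch B. Slc16a1, the broadly expressed carrier MCT1, had 9.43, 10.69 and 10.16 in dexamethasone rats, against 9.84, 9.87 and 9.35 in vehicle rats, and these overlapped. Slc2a1, the basal glucose transporter GLUT1, had 7.45, 7.69 and 7.53 in dexamethasone rats, against 7.52, 5.23 and 7.22 in vehicle rats, with vehicle replicate 2 far below the rest (change 0.90).

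The remaining tested members were Hk1, Pfkl, Pfkp, Aldoc, Eno2, Pygl, Pygb, Gbe1, Pgm1, Ugp2, Gyg1, Pfkfb2 and Ldhb, and in each the dexamethasone and vehicle arrays overlapped. Among them the change was lowest for Pfkl, the liver type of phosphofructokinase (-0.42 ± 0.50 SE), and highest for Aldoc, the brain type of aldolase (0.55 ± 0.58 SE). Gbe1, the glycogen branching enzyme, had a change of 0.46 ± 0.25 SE, and none of them passed.

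**Figure D3:**
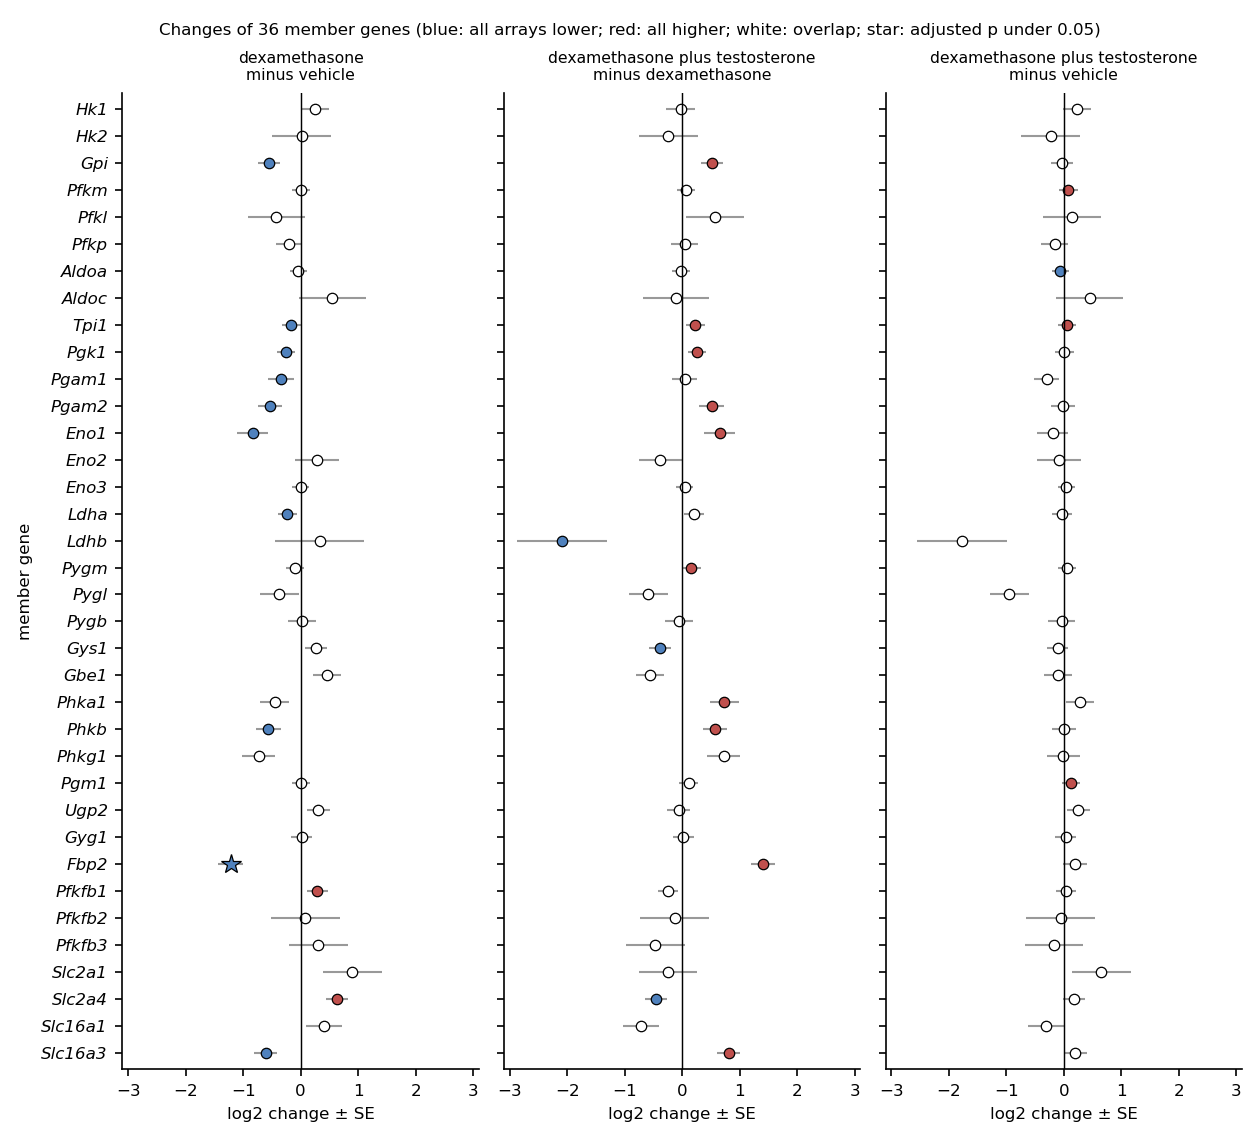
Log2 change (horizontal axis, with SE from the limma fit) of the 36 tested member genes in the 3 comparisons. Blue points have all arrays of the first-named group below the second, red all above, white overlap, and the star marks Fbp2, which passed at an adjusted p of 0.0367.

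With testosterone added to dexamethasone, 0 of 45 member probe sets passed against dexamethasone alone, beside 0.113% of all tested probe sets (21 of 18625, limma). Fbp2 came nearest. Its signal was 11.32, 10.63 and 11.00 in combination rats, against 9.60, 9.69 and 9.44 in dexamethasone rats. The lowest combination array was almost 1 log2 unit above the highest dexamethasone array. Fbp2 was 2.66-fold higher in combination rats (log2 change 1.41 ± 0.21 SE, n = 3 per group, limma adjusted p = 0.0617), and the within-batch changes were 1.73, 0.94 and 1.57 in batches A, B and C. It passed in 4 of 19 alternatives, with adjusted p from 0.00984 to 0.179. At an unadjusted p under 0.05 there were 12 of 36 genes (33.3%), beside 11.7% of all genes; 8 of the 12 were higher and 4 lower, beside 5.64% and 6.11%. Combination arrays lay wholly above dexamethasone arrays in 10 of 36 genes (27.8%), beside 7.68% of all genes, and wholly below in 3, beside 8.66%. The median member change was 0.03, beside 0.0 over all genes, with 19 genes above 0 and 17 below. Both this comparison and that of dexamethasone with vehicle use the same dexamethasone arrays, so opposite signs in them are not independent of each other.

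Slc16a3, Phka1 and Eno1 were among the members whose combination arrays lay wholly above the dexamethasone arrays, and none of them passed. Slc16a3 had 13.49, 13.04 and 13.34 in combination rats, against 12.31, 12.36 and 12.78 in dexamethasone rats (log2 change 0.81 ± 0.20 SE, limma adjusted p = 0.171, and 0.0495 to 0.441 over the alternatives). It passed in 1 of 19 alternatives, the fit with an intensity trend and robust prior. Phka1 had 12.98, 12.59 and 12.94 in combination rats, against 12.41, 11.63 and 12.27 in dexamethasone rats (0.73 ± 0.25, limma adjusted p = 0.328). All combination arrays were higher, the nearest by a small margin. Eno1 had 12.01, 11.36 and 11.50 in combination rats, against 10.51, 11.33 and 11.09 in dexamethasone rats (0.65 ± 0.27, limma adjusted p = 0.431). The nearest Eno1 arrays almost touched, and by batch the changes were 1.5 (A), 0.03 (B) and 0.41 (C). Gpi, Tpi1, Pgk1, Pgam2, Pygm and Phkb were also wholly higher, with changes from 0.16 (Pygm) to 0.57 (Phkb), and none passed. The other Pgk1 probe set past the filter was wholly higher too (0.58 ± 0.22, limma adjusted p = 0.378).

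Ldhb, Gys1 and Slc2a4 lay wholly lower in combination rats. Ldhb encodes the lactate dehydrogenase subunit of slow fibres and heart, which favours the use of lactate as fuel. Its signal was 9.01, 12.71 and 11.78 in combination rats, against 12.87, 13.55 and 13.36 in dexamethasone rats and 13.40, 12.88 and 12.51 in vehicle rats. Combination replicate 1 stood far below the other 8 arrays. The log2 change against dexamethasone was the largest of any tested member in size, at -2.09 ± 0.78 SE, and did not pass (limma adjusted p = 0.366). It was -1.01 without combination replicate 1 (adjusted p = 0.471) and -3.86, -0.84 and -1.58 within batches A, B and C. Slow fibre markers moved with it: their summed signal was 4823, 114993 and 55282 in combination rats, 137942 to 163043 in dexamethasone rats and 112272 to 139523 in vehicle rats. The 10 slow fibre markers had a median change of -2.4 against dexamethasone and none passed, with Myh7, the slow myosin heavy chain, at 8.74, 14.52 and 14.14 in combination rats. In bulk tissue, fewer slow fibres in the piece sampled and less of these RNAs per fibre cannot be told apart. Among members wholly higher than in dexamethasone rats, combination replicate 1 was the highest combination array for Fbp2, Slc16a3, Phka1, Eno1, Gpi, Pgk1, Pgam2 and Phkb. For Tpi1 and Pygm, also wholly higher, it was not the highest. Whether the fibre content of this array had a part in those higher signals was not tested. Gys1 had 11.27, 11.44 and 11.46 in combination rats, against 11.59, 11.92 and 11.79 in dexamethasone rats (-0.38 ± 0.19, limma adjusted p = 0.521). Slc2a4 had 12.38, 12.82 and 12.62 in combination rats, against 13.17, 13.00 and 12.99 in dexamethasone rats (-0.45 ± 0.19, limma adjusted p = 0.437). Its second probe set, low on both batch C arrays, differed by 0.37 ± 0.60. Slc16a1 had 9.21, 9.59 and 9.34 in combination rats, against 9.43, 10.69 and 10.16 in dexamethasone rats, and the arrays overlapped (-0.72 ± 0.31, limma adjusted p = 0.45).

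**Figure D4:**
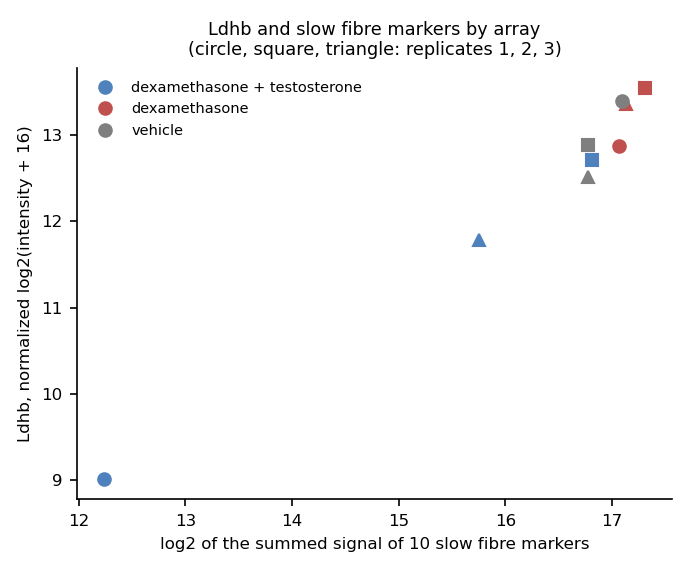
Normalized log2 signal of Ldhb (vertical axis) against the log2 of the summed signal of 10 slow fibre markers (horizontal axis) for each of the 9 arrays. Combination replicate 1 is lowest on both axes, at 9.01 for Ldhb and 12.24 for the markers.

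Between combination and vehicle rats no member probe set passed (0 of 45), and none of all 18625 did in the limma fit (0.0%). At an unadjusted p under 0.05 there were 2 of 36 genes, Ldhb and Pygl, the liver-type phosphorylase, both lower in combination rats, beside 6.28% of all genes and 3.15% lower. Combination arrays lay wholly above vehicle in 3 of 36 genes, beside 8.45% of all genes, and wholly below in 1, beside 6.53%. The median member change was 0.0. The 4 genes without overlap had small changes. Pgm1, which interconverts glucose 1-phosphate and glucose 6-phosphate, had 14.35, 14.23 and 14.31 in combination rats, against 14.16, 14.19 and 14.18 in vehicle rats (log2 change 0.12 ± 0.16 SE, limma adjusted p = 0.92). Pfkm had 14.31, 14.25 and 14.28 in combination rats, against 14.23, 14.14 and 14.24 in vehicle rats (0.08 ± 0.16, limma adjusted p = 0.95). Tpi1 had 14.74, 14.74 and 14.76 in combination rats, against 14.66, 14.69 and 14.69 in vehicle rats (0.06 ± 0.16, limma adjusted p = 0.957). Aldoa had 15.12, 15.09 and 15.09 in combination rats and 15.16 in each vehicle rat (-0.06 ± 0.15, limma adjusted p = 0.959), and 0.0 with arrays scaled to 1 mean. Fbp2 had a change of 0.19 with an interval from -0.29 to 0.67 (95%), and Slc16a3 0.20 with an interval from -0.26 to 0.66, so both intervals span 0.

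Some member probe sets lay apart on the 2 batch C arrays, whichever group the array belonged to. Pygm was read by 3 probe sets. The brightest had 14.67 in combination replicate 3 and 14.55 in dexamethasone replicate 3, inside the 14.49 to 14.72 of the other 7 arrays. Another Pygm probe set had 9.26 and 9.85 on those arrays, against 13.84 to 14.66 on the other 7. The third Pygm probe set was also low on both, at 13.17 and 13.32, against 14.33 to 14.65. For Pfkm, one probe set had 10.72 in combination replicate 3 and 11.22 in dexamethasone replicate 3, against 13.47 to 14.11. A second Phka1 probe set had 8.41 and 8.43, against 10.36 to 11.57 on the other 7, and Hk2 had 5.82 and 6.0, against 6.94 to 7.81. The Gapdh control at the 5′ end had 12.32 in combination replicate 3 and 12.33 in dexamethasone replicate 3, against 14.67 to 14.91. That at the 3′ end had 15.00 and 14.92, against 14.93 to 15.05. The ratio of these controls was what set batch C apart, so their difference restates that choice. Of the 45 member probe sets, 7 were below all other 7 arrays on both batch C arrays (15.6%, beside 9.36% of all tested) and 4 above (8.89%, beside 9.75%). Leaving out batch C, 12 member genes were wholly lower with dexamethasone (beside 20.1% of all genes) and 14 wholly higher in combination rats than in dexamethasone rats (beside 21.0%).

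**Figure D5:**
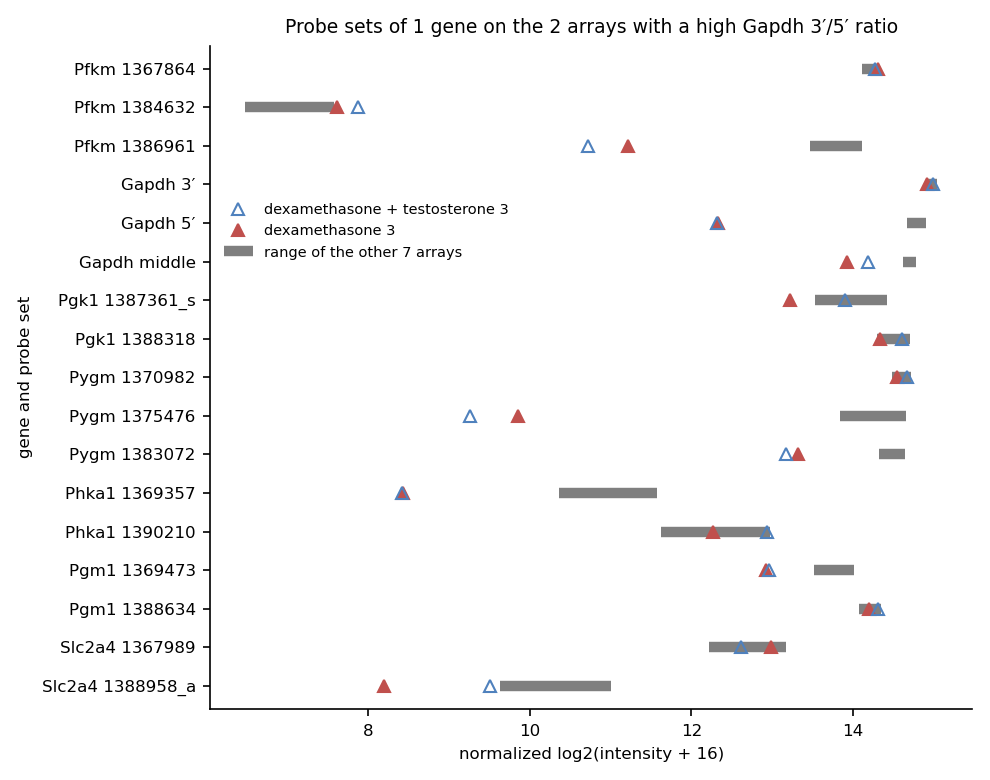
Normalized log2 signal (horizontal axis) of the probe sets of 7 member genes on the 2 batch C arrays (triangles), with the range of the other 7 arrays as grey bars. Probe sets of Pygm, Pfkm and Phka1 lie far below the grey bar on both arrays while another probe set of the same gene lies within it or close to it.

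Among other genes of the pathway, outside the members, 4 of 78 tested passed with dexamethasone, beside 1.05% of all tested probe sets. None passed in either comparison with the combination, beside 0.113% of probe sets against dexamethasone and 0.0% against vehicle. The 78 genes come from 6 lists, chosen with earlier results of these data known. Of 10 tested regulators of glycogen, 1 fell: Stbd1, which tethers glycogen to membranes, had 8.86, 9.42 and 10.03 in dexamethasone rats, against 11.49, 11.47 and 11.50 in vehicle rats (log2 change -2.05 ± 0.28 SE, limma adjusted p = 0.0213). Combination rats had 11.45, 11.28 and 11.12 (1.85 ± 0.28 against dexamethasone, limma adjusted p = 0.0617). Of 17 genes between insulin and glucose uptake, 1 fell: Irs1, an adaptor of the insulin receptor, had 5.56, 5.53 and 5.96 in dexamethasone rats, against 6.85, 7.57 and 6.93 in vehicle rats (-1.43 ± 0.26, limma adjusted p = 0.0396). The dexamethasone signals of Irs1 were dim. An Hk1 probe set below the filter had 5.29, 5.29 and 5.17 in the same rats. Of 13 genes of pyruvate use, 1 rose: Pdk4, a kinase that switches off pyruvate dehydrogenase, had 13.90, 13.85 and 12.91 in dexamethasone rats, against 11.63, 11.61 and 11.93 in vehicle rats (limma adjusted p = 0.04). Of 13 transcription factors of glycolytic genes, 1 rose: Klf15, a glucocorticoid-responsive factor, had 11.34, 10.97 and 10.77 in dexamethasone rats, against 9.39, 9.56 and 9.70 in vehicle rats (limma adjusted p = 0.0324). None passed among 13 genes of the glycerol phosphate and malate shuttles, the pentose phosphate route and hexosamines, or among 12 other isozymes and regulators. Slc2a5, the fructose transporter GLUT5, had 8.25, 9.22 and 8.11 in dexamethasone rats, against 5.94, 4.98 and 5.69 in vehicle rats, and missed the threshold (2.99 ± 0.59, limma adjusted p = 0.0543). Gpd2, the mitochondrial glycerol phosphate dehydrogenase, had 9.74, 9.53 and 10.45 in dexamethasone rats, against 10.90, 10.84 and 10.97 in vehicle rats (-1.0 ± 0.24, limma adjusted p = 0.0896).

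Markers of fibre types and of other cells were read on the same arrays. The summed signal of 11 fast fibre markers was 276943 to 284128 in dexamethasone rats, against 304006 to 305894 in vehicle rats. In combination rats it was 293819 to 308121. With dexamethasone 0 of 11 passed the threshold, and the median change was -0.05. Only Pvalb (-0.92) and Casq1 (-0.47) had all dexamethasone arrays below vehicle. In the others the arrays overlapped, with changes from -0.39 (Myh1) to 0.04 (Atp2a1). The sum of 7 fibroblast markers was 4192 to 16070 in dexamethasone rats, against 26502 to 42348 in vehicle rats. In combination rats this sum was 12195 to 31861. With dexamethasone the median change was -2.78, and none passed the threshold. Col1a1, Col1a2, Col3a1 and Lum had the lowest changes (-3.0 to -2.78). Smaller ones were those of Dpt (-0.97), Dcn (-0.65, arrays overlapping) and Pdgfra (-0.42). Of 6 endothelial markers 1 passed, Car4, a carbonic anhydrase of capillaries, which fell by 2.64 on the log2 scale (limma adjusted p = 0.0359). The median change of the 6 was -0.46, and the others ran from -0.93 (Kdr) to 0.02 (Pecam1). For Pecam1, Tek (-0.09) and Esam (-0.45) the dexamethasone and vehicle arrays overlapped. The part of these shifts in the changes of Fbp2, Eno1 and the other members was not tested.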

How the data were processed

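The deposited values are linear intensities, 1 per probe set, as the authors' series table gives them; the signal algorithm is not given in the sources used here. In 5 arrays the authors had scaled the intensities to a trimmed mean of 500, while 4 were left unscaled, so array medians spanned 1.82 on the log2 scale. Here 57 controls were left out, log2(intensity + 16) was quantile normalized, and probe sets below the 40th percentile of the mean were dropped, leaving 18625. They were fitted with limma 3.58.1 in R 4.3.3 (lmFit, eBayes; 1 mean per group, all 9 arrays), with Benjamini-Hochberg adjustment within each comparison. Control probe sets were placed on the normalized scale by interpolation within each array. The fit was run on simulated data with independent noise and large set changes. These held no batches or differences in RNA quality, so they cannot show how the fit handles them, nor how it handles small changes. Symbols came from the platform annotation, updated through gene IDs (20826 probe sets with 1 symbol, 436 with several, 9780 with none). The members and lists were chosen with earlier results of these data known. Given in full are members past the threshold and, per comparison, the 4 largest changes without overlap; others are given as array values, ranges or counts. The alternatives were filter, pseudocount, scaling, prior, blocks, batches, mean over probe sets and leaving out arrays. The number of arrays limits precision. The p-values set group differences against the spread between arrays within groups, which limma moderates over all probe sets. With 1 array per animal, that spread mixes animal, muscle piece, RNA quality and batch.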

Additional observations from a re-analysis of the deposited data

How the results depend on the processing

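The single member call, Fbp2 with dexamethasone, was lost (0 calls) with no filter, a pseudocount of 1, the replicate block, batch as a block, or without batch C. Leaving out arrays gave 0 to 1 calls. For the combination against dexamethasone, 1 call was made with a filter at the 60th percentile, with a pseudocount of 64 or with the mean over probe sets, and 2 with an intensity trend and robust prior; leaving out any array gave 0. Over all probe sets, the 196 calls with dexamethasone became 469 with the stricter filter, 510 with the trend and robust prior, 48 with no filter, 54 and 414 with pseudocounts of 1 and 64, 13 with the replicate block, 460 without batch C and 1 to 340 without single arrays. The 21 calls for the combination against dexamethasone became 83, 149, 0, 5, 102, 0 and 39 under the same settings, and 0 to 67 without single arrays. The median member change with dexamethasone was -0.25 with arrays scaled to 1 mean, -0.11 within batch A and -0.16 within batch B. That of the combination against dexamethasone was 0.1 with scaled arrays and within batch B, and ran from -0.01 to 0.1 without single arrays (0.1 without dexamethasone replicate 3). Chosen after seeing the data, counts without batch C gave 6 of 36 members wholly lower in combination than in dexamethasone rats, beside 21.1% of all genes, and 2 wholly lower than in vehicle rats, beside 11.6%. Small changes turned sign. Pfkm with dexamethasone was -0.08 with scaled arrays, -0.02 with the batch block, -0.04 without batch C and -0.04 over all its probe sets, and ran from -0.04 to 0.06 without single arrays. Pgm1 was -0.1 with scaled arrays and -0.09 over its probe sets, and ran from -0.04 to 0.07. Ldhb was -0.07 with the batch block. Aldoa was 0.33 with scaled arrays for the combination against dexamethasone and 0.0 against vehicle. Over all probe sets of a gene, the combination differed from vehicle by -0.02 for Pfkm and -0.24 for Phka1. The cause of these turns was not tested. Deviations of same-numbered arrays from their group means had correlations from -0.201 to 0.587, against -0.537 to 0.352 for arrays of different numbers. Because the numbers also go with the batches, these values cannot decide whether the numbers pair the animals. A replicate block cannot move the group differences in this balanced design. With it, the adjusted p of Fbp2 with dexamethasone was 0.0727 (limma) and Fbp2 did not pass.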
